A study of Homo sapiens with 6 samples.

Results

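The 10 genes described here mark the epithelial state of a colon cancer cell and its loss. They are the keratins KRT8, KRT18 and KRT19, the adhesion molecules CDH1 and EPCAM, the claudins CLDN4 and CLDN7, the mesenchymal filament gene VIM, the repressor ZEB1 and the intestinal transcription factor CDX2. They were chosen by name and are 10 of the 62710 genes in the deposited table. All 10 were among the 16753 genes with enough counts to be tested.

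The cells were HCT116, an established human colon cancer line, and every group compared was made in this line. In 3 libraries the cells carried a scrambled short hairpin RNA (sh-NC), and in 3 libraries an shRNA against IGF2BP3 (sh-IGF2BP3), the gene of an RNA-binding protein that attaches to mRNAs. Both groups were stable lines made with lentivirus and selected with puromycin, and the hairpin against IGF2BP3 was a single sequence. Whether the 3 libraries of a group came from separate cultures is not stated, so each test measures the spread between these libraries, which may be technical. Because RNA was taken from whole cultures, fewer cells with a gene on and less of its RNA per cell cannot be told apart.

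In epithelial cells, keratins form the intermediate filaments, and each filament pairs a type II keratin with a type I keratin. Keratin 8 pairs with keratin 18 or keratin 19 in simple epithelia such as that of the gut. E-cadherin, the product of CDH1, joins neighbouring cells at adherens junctions, while claudins seal tight junctions. In the epithelial-mesenchymal transition, repressors such as ZEB1 and SNAI1 bind E-box sequences and silence such genes, and the filament protein vimentin rises.

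The hairpin sequences, which define the groups, were as follows, 5′ to 3′. Of the transcripts in GENCODE 29, the first matched IGF2BP3 and 1 other gene, AC092447.1, and the second matched 0 genes, so that neither matched a transcript of any of the 10 genes.
sh-IGF2BP3: ggctcagggaagaatttat
sh-NC: ttctccgaacgtgtcacgt

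The targeted gene was examined first. IGF2BP3 (ENSG00000136231, chr7:23310209-23470491, minus strand) stood at 90.3, 84.1 and 70.3 CPM (counts scaled to a common library total, with edgeR's TMM factors) in sh-NC 1, 2 and 3. In sh-IGF2BP3 1, 2 and 3 the values were 60.2, 52.3 and 55.8 CPM. All sh-IGF2BP3 libraries lay below all sh-NC libraries, with means of 56.1 ± 3.98 and 81.6 ± 10.2 CPM (SD, n = 3 each). The log2 fold change was −0.54 (SE 0.181), with an adjusted p of 0.126 by edgeR's quasi-likelihood test with Benjamini-Hochberg adjustment, and the exact two-sided permutation test gave 0.1, below which groups of 3 cannot go. With the trends described in the next paragraph removed it was −0.22, and the groups overlapped.

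Totals on genes ran from 16146718 to 23576469 counts per library, and the 10 genes had between 23 and 40317 counts in a library. The libraries also differed in a way that tracked base composition. Among the 4059 tested genes with the highest GC content, the median log2 deviation from a gene's own mean was −0.08, −0.29 and −0.26 in the control libraries, against 0.48, 0.23 and −0.02 in sh-IGF2BP3 1, 2 and 3. Among the 4059 genes with the lowest GC content it was 0.04, 0.22 and 0.22, against −0.34, −0.09 and −0.01. The median GC content of the 10 genes' longest transcripts was 55.9%, above the 48.7% of all tested genes, so the fold changes of the 10 genes are also given with every library's smooth trend against GC content and length taken out, called trends removed here.

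A gene was called when its fold change was over 1.5 and its adjusted p under 0.05. By edgeR, 0 of the 10 genes were called, and 0% of all tested genes. At an unadjusted p under 0.05, KRT8, KRT19 and CDX2 were higher in sh-IGF2BP3 and CDH1 was lower, that is 3 and 1 of 10 against 13.6% and 8.54% of all tested genes. These counts moved with single libraries. They were 5 and 0 without sh-NC 1, against 17.7% and 14.2% of the genes then tested. The count of higher genes was 1 without sh-NC 3, sh-IGF2BP3 1 or sh-IGF2BP3 2, against 7.58%, 8.74% and 7.53%. The count of lower genes was 0 without sh-IGF2BP3 2 or sh-IGF2BP3 3, against 3.81% and 10.3%. With the GC and length trends removed, 1 was higher and 1 lower, against 6.86% and 3.59%. The higher gene was then VIM, not KRT8, KRT19 or CDX2, and the lower was CDH1. The lowest adjusted p among the 10 was 0.121, for KRT19, and the lowest among all genes was 0.0563. DESeq2 also called 0 of the 10, although it called 5.34% of the genes it tested. Of the 10 log2 fold changes 7 were above 0 and 3 below, with a median of 0.27 beside −0.014 for all tested genes. With the trends removed the median of the 10 was −0.01, beside 0.01 for all.

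**Figure D1:**
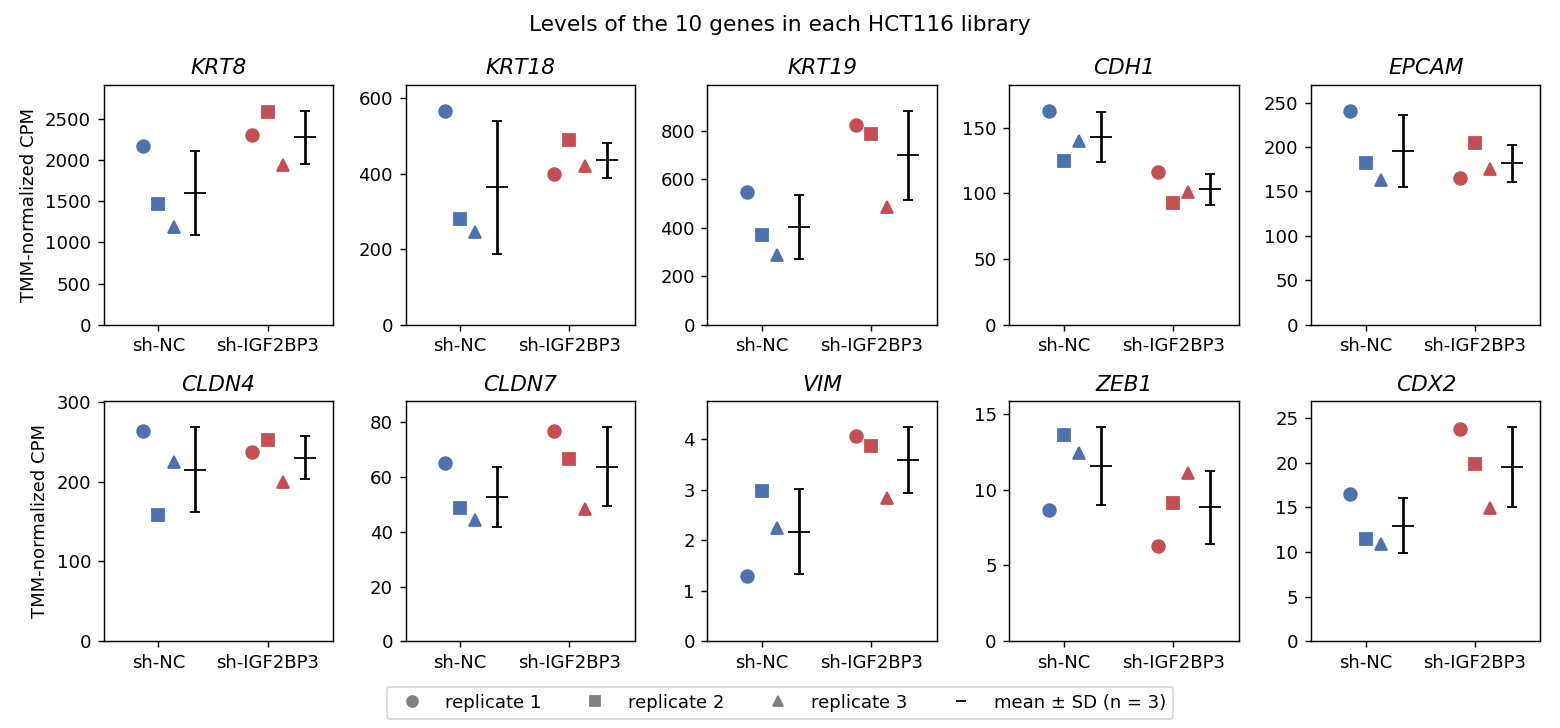
Levels of the 10 genes in TMM-normalized CPM (vertical axes from 0, each on its own scale) in the 3 sh-NC libraries (blue) and the 3 sh-IGF2BP3 libraries (red), with marker shape giving the replicate number and black bars the mean ± SD (n = 3). CDH1 is the gene whose groups do not overlap, and sh-NC 1 is the highest sh-NC library for 8 of the 10 genes.

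Per length and by group means, the keratins were the most abundant of the 10 genes and vimentin the least. In the deposited FPKM, which divide counts by library total and gene length, the keratins led in sh-NC with 236 ± 59.4 for KRT8, 174 ± 45.7 for KRT19 and 120 ± 49.9 for KRT18 (SD, n = 3). The surface and junction genes followed with EPCAM at 81.8 ± 11.7, CLDN4 at 46.7 ± 10.6, CDH1 at 24 ± 2.46 and CLDN7 at 21.6 ± 3.12 FPKM. The 2 transcription factors and vimentin closed the order, with CDX2 at 3.74 ± 0.665, ZEB1 at 1.38 ± 0.363 and VIM at 0.435 ± 0.178 FPKM. Neighbours whose ranges over the 3 sh-NC libraries overlapped were KRT8 and KRT19, KRT19 and KRT18, KRT18 and EPCAM, and CDH1 and CLDN7.

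In sh-IGF2BP3 the order was the same but for one exchange. CLDN7, at 25 ± 6.05 FPKM, stood above CDH1, at 16.5 ± 2.39 FPKM, and the ranges of this pair overlapped as they did in sh-NC. KRT8 and KRT19, at 321 ± 43 and 291 ± 79.4 FPKM, overlapped, while KRT18, at 138 ± 11.1 FPKM, lay apart from both KRT19 above it and EPCAM, at 72.6 ± 6.52 FPKM, below it. At the low end, ZEB1 at 0.989 ± 0.258 and VIM at 0.674 ± 0.13 FPKM overlapped, which they did not in sh-NC. In sh-IGF2BP3 1, KRT19 (353 FPKM) lay above KRT8 (336 FPKM), and VIM (0.786 FPKM) above ZEB1 (0.728 FPKM).

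**Figure D2:**
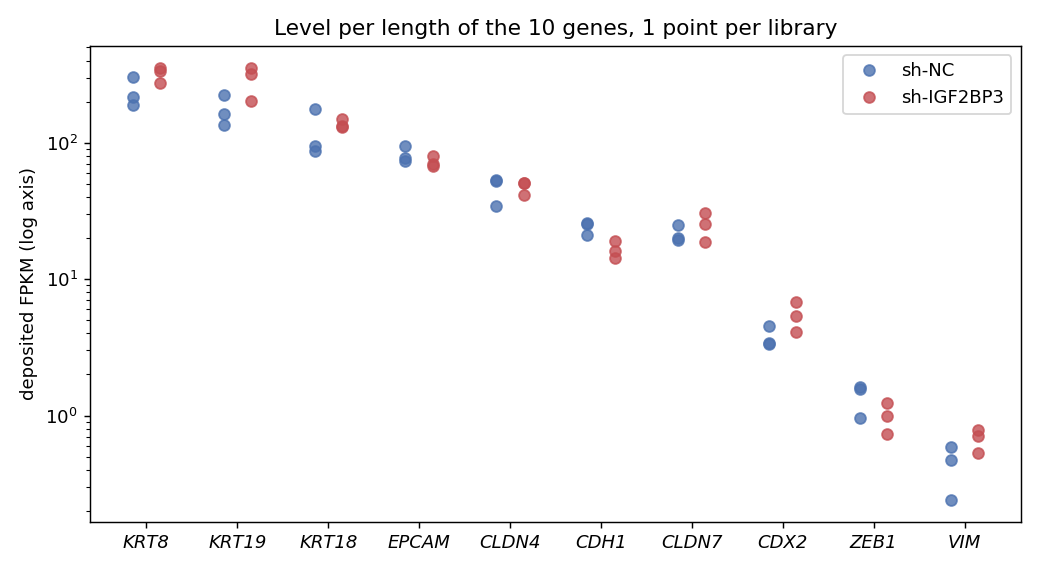
Deposited FPKM (log axis) of the 10 genes in the order of their sh-NC means, with 1 point per library for sh-NC (blue) and sh-IGF2BP3 (red). The epithelial genes from KRT8 to CLDN7 lie above 14 FPKM in every library, and VIM lies below 1 FPKM in every library.

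KRT8 (ENSG00000170421, chr12:52897187-52949954, minus strand), the type II keratin of simple epithelia, had the highest mean level of the 10 in each group. It stood at 2169, 1459 and 1181 CPM in sh-NC 1, 2 and 3, against 2305, 2583 and 1943 CPM in sh-IGF2BP3 1, 2 and 3. The groups overlapped because sh-NC 1 lay above sh-IGF2BP3 3, while the other 2 sh-NC libraries were below all sh-IGF2BP3 libraries. Its log2 fold change was 0.51 (SE 0.234, edgeR adjusted p = 0.22), and it was 0.33 with the trends removed.

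KRT18 (ENSG00000111057, chr12:52948871-52952906, plus strand), its type I partner, lies next to KRT8. It stood at 567, 281 and 246 CPM in the sh-NC libraries and at 398, 488 and 421 CPM in the sh-IGF2BP3 libraries. The highest value of all was that of sh-NC 1, and the 3 sh-IGF2BP3 values were closer together (436 ± 46.4 CPM) than the sh-NC values (364 ± 176 CPM). The log2 fold change was 0.26 (SE 0.265, edgeR adjusted p = 0.586), and with the trends removed it was 0.01.

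KRT19 (ENSG00000171345, chr17:41523617-41528308, minus strand), the smallest keratin and a second type I partner of keratin 8, had the largest ratio of means among the 7 epithelial genes named first. Its values were 546, 369 and 288 CPM in the sh-NC libraries and 823, 786 and 487 CPM in the sh-IGF2BP3 libraries. The means were 401 ± 132 and 699 ± 185 CPM (SD, n = 3 each), a ratio of 1.74, and the groups overlapped because sh-IGF2BP3 3 lay below sh-NC 1. The edgeR log2 fold change was 0.80 (SE 0.255, edgeR adjusted p = 0.121, exact permutation p = 0.2), and it was 0.28 with the trends removed. In edgeR with no filter on low counts KRT19 was called (adjusted p = 0.0299), where 1.89% of genes were called higher. The adjusted p by DESeq2 was 0.0542.

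The calls on the keratins and CDX2 turned on 1 control library. Without sh-NC 1, edgeR called 4 of the 10 genes higher, against 10% of all genes tested, and 0 of the 10 lower, against 5.67%. These were KRT8 (0.79, adjusted p = 0.0219), KRT18 (0.73, adjusted p = 0.0221), KRT19 (1.09, adjusted p = 0.00675) and CDX2 (0.81, adjusted p = 0.036), where the first value is the log2 fold change. Leaving out any other single library gave 0 calls among the 10.

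The balance between the keratins was described per length and per library. For KRT8 to KRT18 the FPKM ratio stood at 1.71, 2.32 and 2.14 in the control libraries and at 2.58, 2.36 and 2.06 in the knockdown libraries, so the groups overlapped. The next ratios were chosen after their values were seen. That of KRT18 to KRT19 had control values of 0.79, 0.579 and 0.65 and knockdown values of 0.368, 0.472 and 0.659, with libraries 1 and 2 of sh-IGF2BP3 below every other library. The 3 keratins together took 0.315%, 0.217% and 0.187% of all counts in the control libraries against 0.353%, 0.365% and 0.276% in the knockdown libraries.

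KRT8 and KRT18 lie on opposite strands and share 525 exon bases in GENCODE 29, and both have many processed copies in the genome. Whether reads were assigned by strand is not stated, so reads from the shared stretch could count for either gene. The 51 KRT8 pseudogenes in the table drew 0.398% to 0.879% of the counts of the gene and its copies together, and the 67 KRT18 pseudogenes 0.547% to 1.27%. For the 5 KRT19 pseudogenes the share was at most 0.0207%. With the copies' counts added, the log2 fold changes were 0.50, 0.26 and 0.80 for KRT8, KRT18 and KRT19.

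CDH1 (ENSG00000039068, chr16:68737292-68835537, plus strand), which encodes E-cadherin, was the member whose groups did not overlap. It stood at 163, 125 and 140 CPM in sh-NC 1, 2 and 3, against 116, 92.4 and 101 CPM in sh-IGF2BP3 1, 2 and 3. Every sh-IGF2BP3 library lay below every sh-NC library, which held for 1 of the 10 genes in this direction against 11% of all tested genes, and for 0 of 10 in the other direction against 13.2%. The means were 143 ± 18.7 and 103 ± 11.9 CPM (SD, n = 3 each), a ratio of 0.723, which is short of a fold of 1.5. The log2 fold change was −0.47 (SE 0.186, edgeR adjusted p = 0.165), and the exact permutation p was 0.1.

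CDH1 has a GC content of 48.6%, close to the median of all tested genes. With the trends removed its log2 fold change was −0.40 (SE 0.167, edgeR adjusted p = 0.469), and the groups again did not overlap, as for 6.7% of all tested genes in this direction. Across 17 alternatives of the analysis its log2 fold change stayed between −0.56 and −0.36 and it was never called. An unnamed antisense gene shares 347 of its exon bases and had 0 to 6 counts in a library.

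EPCAM (ENSG00000119888, chr2:47345158-47387601, plus strand) encodes the epithelial cell adhesion molecule, a surface protein that binds its like on neighbouring cells. It stood at 241, 182 and 163 CPM in the sh-NC libraries and at 165, 205 and 175 CPM in the sh-IGF2BP3 libraries, and the groups overlapped widely. Between the groups, the log2 fold change was −0.10 (SE 0.198, edgeR adjusted p = 0.786), and −0.09 with the trends removed. Without sh-NC 1 it was 0.08, so its sign rested on that library. The FPKM ratio of CDH1 to EPCAM, chosen after its values were seen, was 0.27, 0.275 and 0.345 in the control libraries, against 0.281, 0.18 and 0.231, with overlapping groups.

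CLDN4 (ENSG00000189143, chr7:73799542-73832690, plus strand) encodes a sealing claudin of tight junctions. It stood at 263, 158 and 224 CPM in the sh-NC libraries, which enclosed the 237, 252 and 200 CPM of the sh-IGF2BP3 libraries. The log2 fold change was 0.10 (SE 0.21, edgeR adjusted p = 0.809), and it was −0.18 with the trends removed and −0.09 without sh-NC 2.

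CLDN7 (ENSG00000181885, chr17:7259903-7263983, minus strand), a claudin that also occurs along the lateral membrane and binds EPCAM, stood at 65.3, 48.8 and 44.3 CPM in sh-NC, against 76.7, 66.6 and 48.3 CPM in sh-IGF2BP3. The libraries numbered 3 were the lowest of each group, and the groups overlapped. Its log2 fold change was 0.28 (SE 0.215, edgeR adjusted p = 0.464), and the sign turned with the trends removed (−0.16). The gene's last 38 exon bases overlap ELP5 on the other strand, which had 412 to 743 counts in a library.

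The E-box words read by the ZEB and SNAI repressors were sought in RefSeq promoter windows on GRCh38.p14. The words were CACCTG and its reverse complement CAGGTG, so both strands were covered, in windows of 300 bases from 250 before to 50 after a transcript start. Of the 10 genes, 6 were in that table (CLDN4, VIM, ZEB1, KRT8, CDX2 and CLDN7) with 13 windows, of which 3 held a word, beside 20.6% of all 35116 windows. A CLDN7 window held 5 words, and 5 or more occurred in 0.094% of all windows. That limit was set after the CLDN7 window was seen. The stretch with the 5 words, at chr17:7262458-7262662 on the minus strand from 184 bases before to 21 bases after the start, is shown because it has the most such words among the windows of the 6 genes searched, and capitals mark the words.
CLDN7: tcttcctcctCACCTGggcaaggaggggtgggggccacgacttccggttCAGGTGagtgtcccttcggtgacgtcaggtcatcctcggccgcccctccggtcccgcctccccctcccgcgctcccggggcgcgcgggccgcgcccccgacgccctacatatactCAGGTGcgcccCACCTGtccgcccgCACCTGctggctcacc

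The other windows with a word both belonged to ZEB1, with 3 and 1. A match is a match of letters, and no binding was measured in these libraries.

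ZEB1 (ENSG00000148516, chr10:31318495-31529814, plus strand), a zinc finger repressor of CDH1 and of other epithelial genes, was expressed at a low level. Its counts were 154, 329 and 243 in sh-NC 1, 2 and 3, against 110, 139 and 196 in sh-IGF2BP3 1, 2 and 3, or 8.69, 13.6 and 12.4 CPM against 6.29, 9.09 and 11.1 CPM. The groups overlapped, and library 1 was the lowest of each group. The log2 fold change was −0.39 (SE 0.28, edgeR adjusted p = 0.421), and it was −0.03 with the trends removed, where the GC content of this gene, 38.5%, is the lowest of the 10. The antisense gene ZEB1-AS1 shares 366 exon bases with ZEB1 and had 23 to 38 counts in a library.

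VIM (ENSG00000026025, chr10:17228241-17237593, plus strand), which encodes vimentin, the intermediate filament of mesenchymal cells, had the lowest mean level of the 10 per length in each group. Its counts were 23, 72 and 44 in sh-NC, against 71, 59 and 50 in sh-IGF2BP3, or 1.3, 2.97 and 2.25 CPM against 4.06, 3.86 and 2.84 CPM. The groups overlapped by 1 pair of libraries, since sh-IGF2BP3 3 lay below sh-NC 2. The edgeR log2 fold change was 0.71 (SE 0.367, edgeR adjusted p = 0.268, exact permutation p = 0.2).

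With the trends removed, the log2 fold change of VIM was 0.83 (edgeR adjusted p = 0.455) and the groups did not overlap, as for 8.43% of all tested genes in this direction. VIM-AS1, on the other strand, shares 641 exon bases with VIM and had 5, 19 and 23 counts in sh-NC, against 19, 13 and 11 in sh-IGF2BP3. These are not small beside the counts of VIM itself. The FPKM ratio of CDH1 to VIM was chosen after its values were seen. It was 107, 35.9 and 53.2 in the control libraries, against 24.3, 20.4 and 30.3 in sh-IGF2BP3. The groups did not overlap, but CDH1 alone already separated them, and the share of other gene pairs that do so was not taken. The ratio of 107 rested on 23 VIM counts in sh-NC 1. CDH1 remained far above VIM per length in every library.

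CDX2 (ENSG00000165556, chr13:27960918-27969315, minus strand), a homeobox factor that sets intestinal identity, had 293, 275 and 214 counts in sh-NC, against 417, 303 and 262 counts in sh-IGF2BP3. These were 16.5, 11.4 and 10.9 CPM against 23.8, 19.8 and 14.9 CPM. The groups overlapped because sh-IGF2BP3 3 lay below sh-NC 1, and library 1 was the highest of each group. The log2 fold change was 0.59 (SE 0.254, edgeR adjusted p = 0.189, exact permutation p = 0.2), and it was 0.30 with the trends removed.

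**Figure D3:**
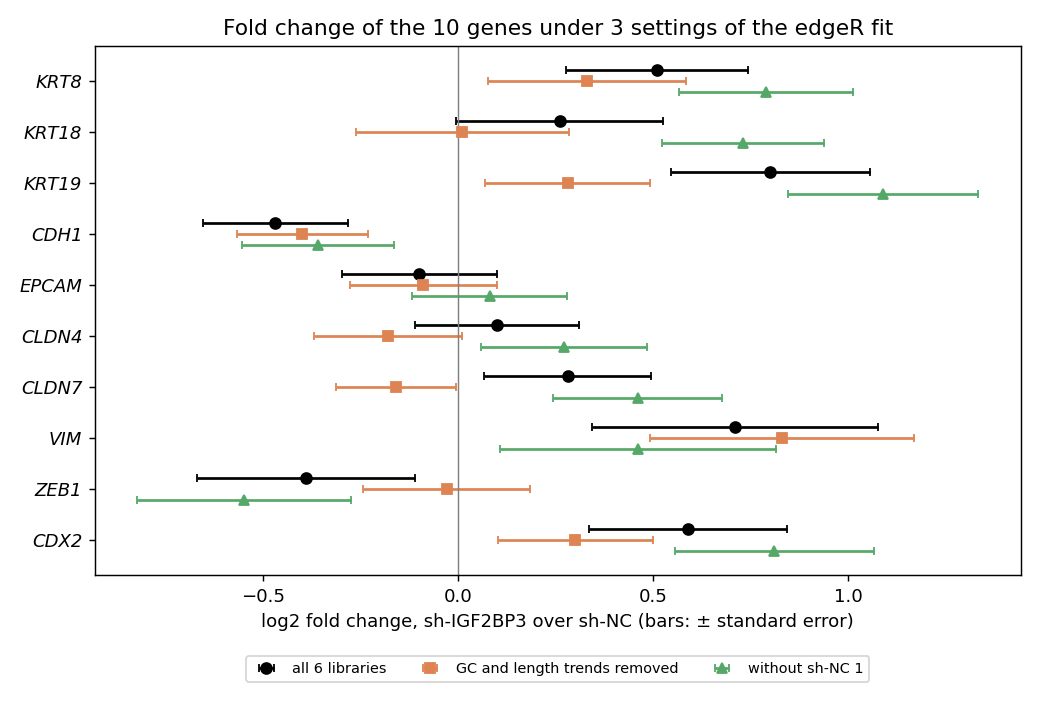
Log2 fold change of sh-IGF2BP3 over sh-NC for the 10 genes (horizontal axis, bars ± standard error) from edgeR with all 6 libraries (black circles), with the GC and length trends removed (orange squares) and without sh-NC 1 (green triangles). The keratins and CDX2 move away from 0 without sh-NC 1 and toward 0 with the trends removed, CDH1 stays between −0.47 and −0.36, and CLDN4 and CLDN7 turn negative with the trends removed.

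For the setting of these genes, 9 lists of 120 other genes were examined, of which 82 could be tested, and edgeR called 0 of them. Genes are named from each list as the 3 tested genes with the smallest unadjusted p, and any others were chosen after their values were seen. DESeq2 called 3 of the 82, PKP3, KRT10 and MAL2, against 5.34% of all the genes it tested.

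The 12 adherens junction genes, which include cadherins and nectins, had 6 log2 fold changes above 0 and 6 below, with a median of 0.01. Groups did not overlap in 0 of the 12, against 13.2% of all tested genes that were higher and 11% that were lower. With the trends removed the median was 0.03. Groups then did not overlap in 2 genes that were higher and 1 that was lower, against 8.43% and 6.7% of all tested genes. NECTIN2, an immunoglobulin-like adhesion molecule, stood at 68.8 ± 6.49 CPM in sh-NC and 96.5 ± 26.5 CPM in sh-IGF2BP3 (log2 fold change 0.49, edgeR adjusted p = 0.189, and 0.08 with the trends removed). AFDN, the actin linker of nectins, stood at 138 ± 29.8 and 107 ± 15.2 CPM (−0.37, edgeR adjusted p = 0.29, and −0.11 with the trends removed). The intestinal cadherin CDH17 was barely expressed, at 1.05 ± 0.475 and 0.471 ± 0.274 CPM (−1.18, edgeR adjusted p = 0.223, and −1.01 with the trends removed).

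Of 14 tight junction genes 13 were tested, with 7 log2 fold changes above 0, 6 below and a median of 0.04, or −0.14 with the trends removed. In 3 of them, OCLN, CLDN12 and TJP1, all sh-IGF2BP3 libraries lay below all sh-NC libraries, against 11% of all tested genes. With the trends removed this held for 2 genes of the list, against 6.7% of all tested genes. OCLN, which encodes occludin, stood at 48.1, 43.6 and 43.5 CPM in sh-NC, against 29.7, 25.6 and 32.4 CPM in sh-IGF2BP3, with a log2 fold change of −0.62 (SE 0.188, edgeR adjusted p = 0.116) that was −0.27 with the trends removed. The values for CLDN12 and for the scaffold gene TJP1 (ZO-1) were −0.56 and −0.40, with edgeR adjusted p-values of 0.139 and 0.23, and −0.21 and −0.14 with the trends removed.

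The desmosome list, junctions that anchor keratin filaments, held values of both signs. Of its 9 tested genes 3 were higher and 6 lower, with a median of −0.28, or −0.10 with the trends removed. Groups did not overlap in 1 and 5 of them, against 13.2% and 11% of all tested genes. The plakophilin PKP3 stood at 86.2, 65.4 and 49.9 CPM in sh-NC, against 179, 143 and 90.6 CPM in sh-IGF2BP3 (log2 fold change 1.03, SE 0.252, edgeR adjusted p = 0.103). EVPL, a plakin, was at 101 ± 5.75 and 155 ± 51.4 CPM (0.61, edgeR adjusted p = 0.143). The desmosomal cadherin DSC2 was lower, at 112 ± 7.06 against 78.3 ± 2.71 CPM (−0.52, edgeR adjusted p = 0.126). The longest transcripts of PKP3 and EVPL have GC contents of 66.7% and 65.0% and that of DSC2 38.9%. With the trends removed their log2 fold changes were 0.36, 0.08 and −0.12. Groups then did not overlap in 0 genes of the list, against 8.43% and 6.7% of all tested genes.

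The other keratins, 9 of 14 tested, had 8 log2 fold changes above 0 and 1 below, with a median of 0.40. With the trends removed 4 of the 9 were above 0 and the median was −0.06. KRT10, a type I keratin of stratified epithelia, stood at 9.99, 10.3 and 6.34 CPM in sh-NC, against 22, 17 and 11.5 CPM in sh-IGF2BP3, so the groups did not overlap (log2 fold change 0.92, edgeR adjusted p = 0.117), and its log2 fold change was 0.76 with the trends removed. Its span overlaps that of TMEM99 on the other strand. KRT15 and KRT7 had values of 0.46 and 0.34 (edgeR adjusted p = 0.32 and 0.505), which were 0.26 and −0.20 with the trends removed. KRT5 and KRT14 were almost silent, with 40 and 19 counts over the 6 libraries, while KRT15 had 1850.

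In the wider epithelial program, 18 of 18 genes were tested, 12 with values above 0 and 6 below, and the median was 0.28. With the trends removed 6 of the 18 were above 0 and the median was −0.11. At an unadjusted p under 0.05, 5 of the 18 were higher and 3 lower, against 13.6% and 8.54% of all tested genes. MAL2, a protein of apical transport, stood at 143, 124 and 119 CPM in sh-NC, against 71, 76.3 and 76.9 CPM in sh-IGF2BP3, with a log2 fold change of −0.78 (SE 0.177, edgeR adjusted p = 0.103) that was −0.57 with the trends removed. ESRP1, the epithelial splicing regulator, was at 180 ± 10.1 and 131 ± 7.67 CPM (−0.46, edgeR adjusted p = 0.152, and −0.25 with the trends removed). OVOL2, a repressor of the mesenchymal state, was near 1 CPM, at 0.527 ± 0.0853 and 1.25 ± 0.638 CPM (1.21, edgeR adjusted p = 0.183, and 0.81 with the trends removed).

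Factors that drive the epithelial-mesenchymal transition were scarce. Of 9 on the list 3 were tested, with log2 fold changes above 0 that were not called and a median of 0.28, but with the trends removed only SNAI1 was above 0 and the median was −0.22. SNAI1 stood at 10.8 ± 2.33 CPM in sh-NC and 15.6 ± 3.46 CPM in sh-IGF2BP3 (0.53, edgeR adjusted p = 0.236, and 0.14 with the trends removed). SNAI3 and TWIST1 had values of 0.28 and 0.14, which were −0.36 and −0.22 with the trends removed. ZEB2 and SNAI2 had 6 and 28 counts over the 6 libraries, and TWIST2 and TCF4 had 0, which allows up to 0.0268 CPM over the 6 libraries together (counting error only).

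Markers of mesenchymal cells and fibroblasts were tested for 7 of 18 genes, with 3 values above 0, 4 below and a median of −0.30, or −0.14 with the trends removed. Their summed level was 264 to 420 CPM in sh-NC and 299 to 447 CPM in sh-IGF2BP3, which overlap, and CDH11, COL1A2 and LUM were at 0. S100A4, a calcium-binding protein, was at 181, 155 and 181 CPM against 245, 343 and 184 CPM (0.58, edgeR adjusted p = 0.152, and 0.31 with the trends removed), and the collagen-binding SPARC was at 13.8 ± 3.34 against 7.66 ± 3.24 CPM (−0.84, edgeR adjusted p = 0.143, and −0.76 with the trends removed). FN1, fibronectin, spread widely among the control libraries, at 36.2, 101 and 163 CPM, against 108, 55 and 71.2 CPM in sh-IGF2BP3. Its log2 fold change was −0.35 (edgeR adjusted p = 0.597), 0.10 with the trends removed and −0.75 without sh-NC 1.

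Beside CDX2, other genes of intestinal identity were tested for 8 of 16, with a median of 0.07 with and without the trends. Groups did not overlap in 0 of them, against 13.2% of all tested genes that were higher and 11% that were lower. GATA6 and EPHB2, which were among those with the smallest unadjusted p, had log2 fold changes of 0.39 and 0.20, with edgeR adjusted p-values of 0.491 and 0.568, and 0.14 and 0.10 with the trends removed. Several of the listed genes were near absent in both groups, with 1 count each of CDX1 and LGALS4, 9 of VIL1 and 0 of FABP1, which encodes a fatty acid binding protein of enterocytes, over the 6 libraries. ASCL2, a factor of intestinal stem cells, also had 0 counts. Of the 9 blood and endothelial markers 3 were tested, with a summed level of 3.22 to 5.57 CPM in sh-NC and 2.49 to 4.92 CPM in sh-IGF2BP3. PTPRC had 1 count and CD3E 2, and the tested CSF1R, PECAM1 and VWF had edgeR adjusted p-values of 0.639, 0.657 and 0.898.

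Without sh-NC 1, edgeR called 1 adherens junction, 1 desmosome, 2 other keratin and 5 epithelial program genes higher, and 1 tight junction, 1 epithelial program and 2 mesenchymal genes lower. These were 9 and 4 of the 82 genes, against 10% and 5.67% of all genes tested without that library.

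**Figure D4:**
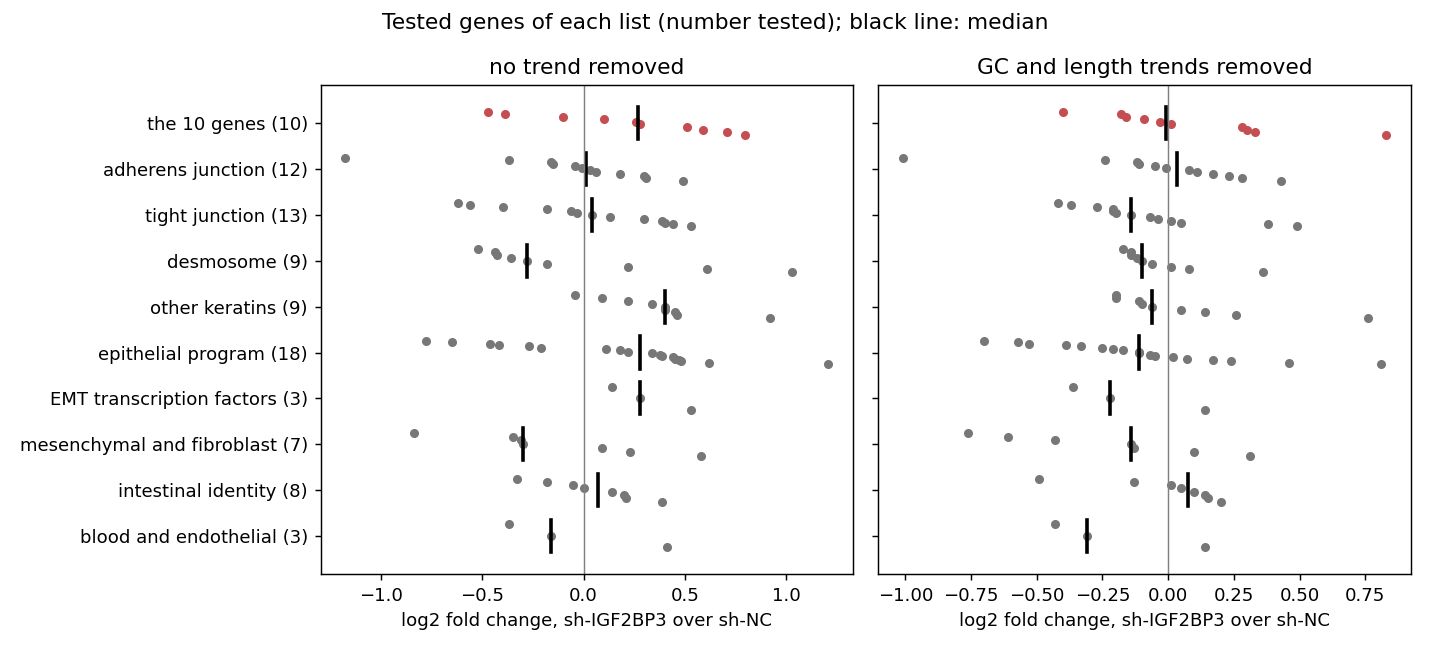
Log2 fold change of sh-IGF2BP3 over sh-NC (horizontal axis) for the tested genes of the 10-gene set (red) and of the 9 other lists (grey), with the number tested in brackets and black lines at the medians, on the left from edgeR with no trend removed and on the right with the GC and length trends removed. The medians of the 10 genes, the other keratins and the epithelial program, 0.27, 0.40 and 0.28 on the left, are −0.01, −0.06 and −0.11 on the right.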

How the data were processed

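Total RNA of the 6 HCT116 libraries was prepared with a TruSeq RNA kit, per the labels. The authors deposited raw counts per gene, without normalization, and FPKM values, which are these counts divided by library total and gene length. The submitters' processing notes name CASAVA and GRCh38. The aligner, the counting tool and the use of strand are not given in the sources used here. Coordinates are those of the deposited table on GRCh38.

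The 10 genes, the 9 lists and the rules were chosen with earlier results of these data known, and several genes of the lists were named in those results. Counts were tested in edgeR 4.0.16 (R 4.3.3; filterByExpr, TMM, glmQLFit, glmQLFTest, two-sided) over 16753 genes with Benjamini-Hochberg adjustment. Thresholds, a fold of 1.5 and an adjusted p of 0.05, follow the study's methods, which name no tool. DESeq2 1.42.0, limma 3.58.1 on log2(FPKM + 1) and on log2(FPKM + 0.1), other scalings and filters, a replicate block, each library left out, and spline trends (5 df) in GC content and length served as alternatives, and scripts were tested on simulated data. GC content, computed on each gene's longest transcript in GENCODE 29, was known for 96.9% of tested genes. Exact permutation tests used log2 CPM (prior count 2) over the 20 splits. Genes named were the 10, IGF2BP3 and, per list, called genes and the 3 with the smallest unadjusted p, of which 1 gene is not reported here. Counts of the 10 genes under alternatives, and FPKM ratios other than KRT8 to KRT18, were added after the data were seen. Promoters were taken from RefSeq. Depth was 16146718 to 23576469 counts per library. Same-group libraries differed by more than counting noise.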

Additional observations from a re-analysis of the deposited data

How the results depend on the processing

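Of the 10 genes, CDH1, KRT8, KRT18, KRT19, VIM, ZEB1 and CDX2 kept their sign in every alternative run, while EPCAM, CLDN4 and CLDN7 changed it in 1, 3 and 2. Calls were gained without sh-NC 1, by KRT8 (0.79), KRT18 (0.73), KRT19 (1.09) and CDX2 (0.81), and by KRT19 (0.80) with no filter on low counts. The cause was not tested. With 1 library left out, log2 fold changes ranged from 0.30 to 0.79 for KRT8, 0.02 to 0.73 for KRT18, 0.58 to 1.09 for KRT19, 0.43 to 0.81 for CDX2, −0.56 to −0.36 for CDH1, −0.24 to 0.08 for EPCAM, −0.09 to 0.27 for CLDN4, 0.12 to 0.46 for CLDN7, 0.46 to 1.02 for VIM, −0.60 to −0.19 for ZEB1 and −0.66 to −0.46 for IGF2BP3. VIM could not be fitted in 2 settings, those limited to mean FPKM of 1 or more. Over all genes, 0 were called higher and 0 lower by edgeR, although 3714 had an unadjusted p under 0.05. DESeq2 called 562 and 137, no filter on low counts gave 687 and 150, RLE normalization and at least 10 counts in every library gave 1 each, higher, and limma on log2(FPKM + 1), limited to mean FPKM of 1 or more, gave 1, lower. Leaving out 1 library gave 0 to 1739 higher and 0 to 985 lower, the highest without sh-NC 1. Without sh-IGF2BP3 3 there were 214 and 14, without sh-NC 3 there were 5 and 0, and without sh-NC 2 there was 1 each. The paper describes 3 pairs of control and knockdown cells, and whether same-numbered libraries form these pairs is not stated. Deviations from the group means correlated at −0.284, −0.186 and −0.043 between same-numbered libraries. These values show no shared deviation by number, but they cannot show whether the design was paired. With the replicate block, 0 genes were called, and the values were 0.54 for KRT8, 0.36 for KRT18, 0.81 for KRT19, −0.47 for CDH1, −0.09 for EPCAM, 0.12 for CLDN4, 0.27 for CLDN7, 0.76 for VIM, −0.40 for ZEB1, 0.59 for CDX2 and −0.54 for IGF2BP3. With the block and the trends removed together, KRT19 was 0.31 and CDH1 −0.39. With 3 libraries a group, a permutation p cannot go below 0.1, and VIM rested on 23 to 72 counts.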
